A study of Mus musculus with 4 samples.

Results

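Small leucine-rich proteoglycans (SLRPs) are secreted matrix proteins, and 8 of their genes were followed here out of 32285 genes in the count matrices. The genes were chosen by symbol as members of the family: Dcn (decorin), Bgn (biglycan), Aspn (asporin), Lum (lumican), Fmod (fibromodulin), Omd (osteomodulin), Prelp and Ogn (osteoglycin, also called mimecan). They were chosen by family, with earlier results of these data known. Their unique molecular identifiers (UMIs, each standing for 1 captured mRNA molecule) were summed per library in bone cells, in the subtypes of bone cells, in marrow stromal cells and in chondrocytes.

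SLRPs carry a core of leucine-rich repeats that folds into a curved shape and binds collagen fibrils. Most of them bear sugar chains: chondroitin or dermatan sulfate on decorin and biglycan, keratan sulfate on lumican, fibromodulin and osteomodulin. They set how thick collagen fibrils grow, and several bind growth factors of the TGF-beta and BMP families. In bone, osteoblasts lay them down with type I collagen in the osteoid, the matrix that later mineralizes. Decorin, biglycan and asporin form class I of the family, lumican, fibromodulin, osteomodulin and Prelp form class II, and osteoglycin belongs to class III.

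The series compared limb marrow of Prx1-cre;Mettl3-fl/fl mice with that of control mice, all C57BL/6 and at postnatal day 12. The Prx1 promoter drives the recombinase in mesenchyme of the limb bud, the source of its bone, cartilage and stroma, so vessel and blood cells are not its main targets. Mettl3 encodes the catalytic subunit of the writer of N6-methyladenosine (m6A) on RNA. From 3 mice per genotype, live cells without CD45 (on leukocytes) or Ter119 (on red cells) were sorted and made into droplet libraries that capture the 3′ ends of mRNA. There were 4 libraries: mutant 1, mutant 2, control 1 and control 2. The label of mutant 2 gives its genotype only as mutant, and the genotype of the control mice is not given further. The sources used here do not say which mice went into which library, so the spread of these 4 libraries may be technical. With so few libraries, a p-value rests mainly on a spread pooled over genes and little on the gene's own spread. A very small p-value is therefore no measure of how alike the mice were.

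The gate, which needed 3 or more detected markers of a class, found 2003 bone cells in mutant 1 and 1473 in mutant 2, against 280 in control 1 and 47 in control 2. Stromal cells numbered 69 and 30 in the mutants and 994 and 47 in the controls, and chondrocytes 15 and 26 in the mutants and 19 and 13 in the controls. Median depth per bone cell was 15524 to 21221 UMIs over the 4 libraries. Mutant 1 and control 1 share 1 version of the count software in the submitters' notes, and mutant 2 and control 2 another, so each version holds 1 library of each genotype. CPM stands for the UMIs of a gene per 1000000 UMIs of the class. In bone cells the 12 bone markers summed to 61158 and 68959 CPM in mutants, against 118025 and 157192 CPM in controls. Col1a1 alone stood at 31550 and 42180 CPM in mutants, against 84437 and 90877 CPM in controls. The osteocalcin genes Bglap and Bglap2 together took 0.466% and 0.787% of UMIs in mutants, against 2.28% and 5.68% in controls. By these values the rest of the list, summed, was higher in both mutants than in either control. The median bone cell had 9 of the 12 markers in every library. The 8 fibroblast and tendon markers summed to 125 and 94.7 CPM in mutant bone cells, against 40.4 and 7.49 CPM in controls, and the 7 pericyte and smooth muscle markers to 134 and 73.4 CPM in mutants, against 47.4 and 56.2 CPM in controls. The 10 leukocyte markers stood apart in mutant 2, at 59.7 and 874 CPM in mutants and 17.1 and 14.99 CPM in controls, as did the 10 erythroid markers, at 97.8 and 1192 CPM in mutants and 493 and 443 CPM in controls. The part of these lists in the member differences was not tested. Mettl3 was scarce in bone cells, at 4.11 and 6.41 CPM in mutants and 7.06 and 10.3 CPM in controls (165, 178, 43 and 11 UMIs). Its log2 difference of -0.86 ± 0.36 (SE) did not pass the test (edgeR quasi-likelihood, adjusted p = 0.107), and 3′ tags outside the deleted segment check nothing.

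On the mouse genome (mm10, the build of the files, with GENCODE M21 annotation), 7 of the 8 genes lie in 3 neighbourhoods and the eighth, Bgn, lies alone on chromosome X at chrX:73483602-73495933 on the plus strand. Aspn, Omd and Ogn follow each other on the plus strand of chromosome 13, at chr13:49544443-49567565, chr13:49582462-49592822 and chr13:49608046-49624501, with 14896 bases between Aspn and Omd and 15223 between Omd and Ogn. All 3 lie inside the span of the centromere protein gene Cenpp on the opposite strand, and 1 Cenpp exon overlaps Aspn. Cenpp was low in bone cells, at 6.00 and 6.33 CPM in mutants and 5.25 and 0.937 CPM in controls, and reached 58.7 to 75.8 CPM in erythroid cells, where Aspn stood at 0.658 to 1.45 CPM. Dcn (chr10:97479609-97518143) and Lum (chr10:97565128-97572703) are neighbours on the plus strand of chromosome 10, 46984 bases apart. Prelp (minus strand, chr1:133910304-133921414) and Fmod (plus strand, chr1:134037254-134048277) lie 115839 bases apart on chromosome 1.

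The sequences at the asporin, osteomodulin and osteoglycin starts are shown because these 3 neighbours differed in the cells and genotypes in which they were read. Each runs from 250 bases before the annotated start to 50 after it, on the plus strand of GRCm38.p6, and comes from RefSeq, whose table matched 6 of the 8 members. Capitals mark TATAAA, the core of the TATA box, and TGTGGT, a core bound by RUNX factors, on either strand.
Aspn, chr13:49544193-49544492: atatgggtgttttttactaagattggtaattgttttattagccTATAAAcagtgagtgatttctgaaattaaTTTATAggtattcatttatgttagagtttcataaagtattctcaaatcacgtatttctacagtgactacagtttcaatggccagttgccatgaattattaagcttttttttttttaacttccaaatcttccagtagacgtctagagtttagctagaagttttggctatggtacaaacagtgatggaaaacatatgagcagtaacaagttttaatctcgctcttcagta
Omd, chr13:49582212-49582511: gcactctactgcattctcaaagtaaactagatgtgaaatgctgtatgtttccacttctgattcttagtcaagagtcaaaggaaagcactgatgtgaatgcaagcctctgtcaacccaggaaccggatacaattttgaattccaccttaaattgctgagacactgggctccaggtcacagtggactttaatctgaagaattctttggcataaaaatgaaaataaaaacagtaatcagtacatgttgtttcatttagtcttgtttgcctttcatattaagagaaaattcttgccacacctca
Ogn, chr13:49607765-49608064: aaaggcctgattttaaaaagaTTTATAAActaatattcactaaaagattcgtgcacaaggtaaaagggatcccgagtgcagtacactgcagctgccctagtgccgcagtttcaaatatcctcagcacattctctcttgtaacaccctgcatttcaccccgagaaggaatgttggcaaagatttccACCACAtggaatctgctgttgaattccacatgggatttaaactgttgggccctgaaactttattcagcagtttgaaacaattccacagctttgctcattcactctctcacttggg
The motifs searched on both strands were TATAAA, the RUNX core TGTGGT, the palindromic EBF motif and the AP-1 motif TGANTCA. The asporin window held TATAAA once on each strand. The osteoglycin window held TATAAA on both strands, in overlapping letters, and 1 match to TGTGGT on the minus strand. In both windows every TATAAA match lies nearer the upstream end than the annotated start, and its function was not tested. The osteomodulin window held none of these motifs, and neither did the windows of Prelp, Fmod and Bgn. Of 32851 promoter windows of the same length, 13.6% held TATAAA, 16.8% held TGTGGT, 0.904% held the EBF motif and 7.81% held TGANTCA.

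**Figure D1:**
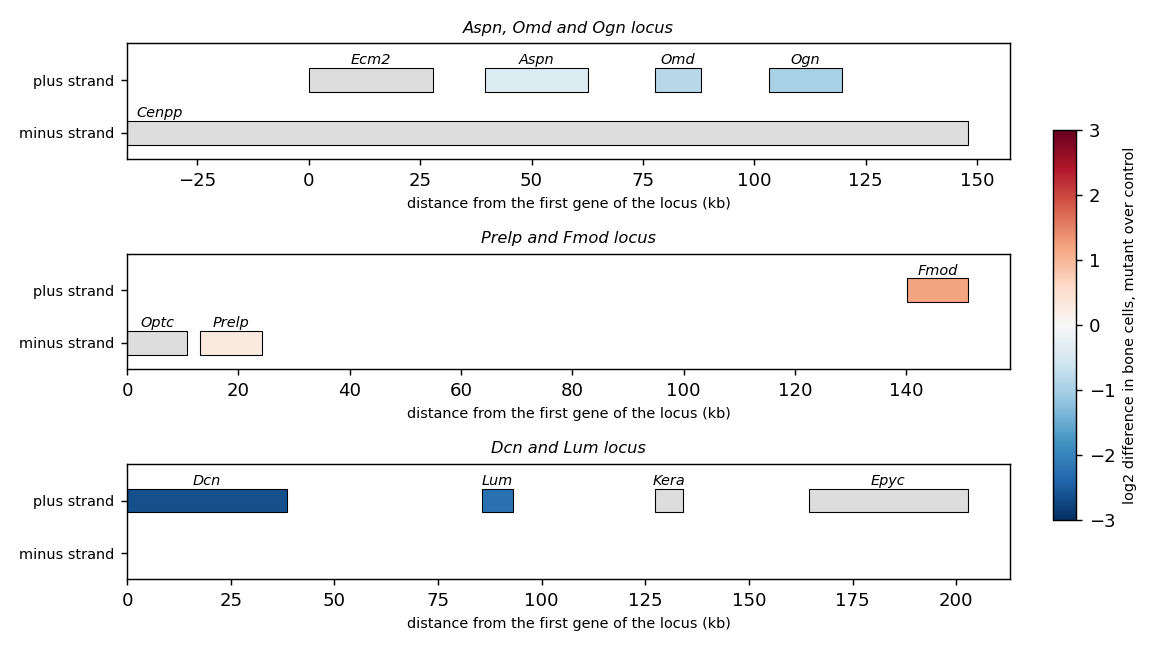
Positions of 7 of the 8 members and their neighbours at 3 loci, to scale, as distance in kb from the first gene of each locus (x) and strand (y). Colour gives the log2 difference in bone cells, mutant over control, and grey genes are not members; Cenpp runs past the left edge. Dcn and Lum are dark blue (-2.64 and -2.24), Fmod is red (1.20) and Prelp is pale (0.30).

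In bone cells as a whole, decorin, lumican and osteoglycin fell in the mutants, fibromodulin rose, and biglycan, asporin, osteomodulin and Prelp did not pass the test. Thus 3 of 8 members were lower and 1 was higher, where 6.99% of 13102 genes tested were lower and 10.1% higher (17.1% in either direction; edgeR quasi-likelihood test with the software version as a covariate, Benjamini-Hochberg adjusted p below 0.05). Levels are given in CPM of all UMIs in the class. Since 3′ UMI counts do not scale with transcript length, levels of different genes are set side by side as molecules.

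Decorin, the class I proteoglycan that coats collagen fibrils, stood at 451 and 805 CPM in mutant 1 and mutant 2, against 3153 and 3795 CPM in control 1 and control 2. Both mutant libraries lay far below both control libraries. The log2 difference was -2.64 ± 0.19 (SE; adjusted p = 7.7e-10, edgeR), or -2.80 within the first software version and -2.24 within the second. Lumican, a class II member with keratan sulfate chains that also limits fibril growth, stood at 240 and 249 CPM in mutants, against 952 and 1186 CPM in controls. Its groups did not overlap either, with a log2 difference of -2.24 ± 0.20 (adjusted p = 1.9e-08, edgeR). In controls decorin was the most abundant of the 8 members in bone cells, whereas in both mutant libraries biglycan was.

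Biglycan, the close class I relative of decorin, stood at 1124 and 1428 CPM in mutants and 1366 and 1421 CPM in controls. The ranges overlapped, and the log2 difference was -0.26 ± 0.18 (adjusted p = 0.361, edgeR). Fibromodulin, a class II member that binds type I collagen, stood at 157 and 268 CPM in mutants, against 101 and 60.9 CPM in controls. Both mutants were higher, by 1.20 ± 0.27 on the log2 scale (adjusted p = 0.0027, edgeR). The size differed between software versions, at 0.63 in the first and 2.12 in the second.

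Osteoglycin, the class III member, stood at 32.6 and 29.1 CPM in mutants and 72.9 and 38.4 CPM in controls. Its groups did not overlap, but control 2 lay close to the mutants, and the log2 difference was -0.96 ± 0.24 (adjusted p = 0.006, edgeR). In control 2, 33 of its 41 UMIs came from 5 cells, and in control 1, 172 of 444. Osteomodulin, also called osteoadherin, a keratan sulfate proteoglycan made by osteoblasts, stood at 147 and 66.6 CPM in mutants and 125 and 217 CPM in controls. These ranges overlapped, the log2 difference was -0.83 ± 0.31 (adjusted p = 0.065, edgeR), and it was 0.23 within the first version and -1.69 within the second. Asporin, a class I member that lacks the sugar chain and binds TGF-beta, stood at 45.6 and 48.3 CPM in mutants and 44.8 and 76.8 CPM in controls (log2 difference -0.41 ± 0.23, adjusted p = 0.236, edgeR). Prelp, a class II member that binds heparan sulfate of basement membranes, was near the floor of bone cells, at 2.76 and 2.70 CPM in mutants and 2.13 and 1.87 CPM in controls (111, 75, 13 and 2 UMIs).

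In bone cells, the fits that leave out 1 library carry no batch term and call fewer genes in all than the full fit. With control 1 left out, few genes of any kind and no member passed, although decorin kept a log2 difference of -2.63 and lumican -2.28. That fit rests on the 47 bone cells of control 2. Osteoglycin had a log2 difference of only -0.31 there (adjusted p = 0.632, edgeR). Fibromodulin lost its call without control 1 (1.77, adjusted p = 0.102, edgeR), without control 2 (0.84, adjusted p = 0.221, edgeR) and without mutant 2 (0.91, adjusted p = 0.141, edgeR). Decorin fell short of the threshold without mutant 1 as well, at -2.33 (adjusted p = 0.054, edgeR), and osteoglycin without mutant 2, at -0.85 (adjusted p = 0.139, edgeR). Osteomodulin, in turn, passed as lower without mutant 1 (-1.56, adjusted p = 0.015, edgeR).

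**Figure D2:**
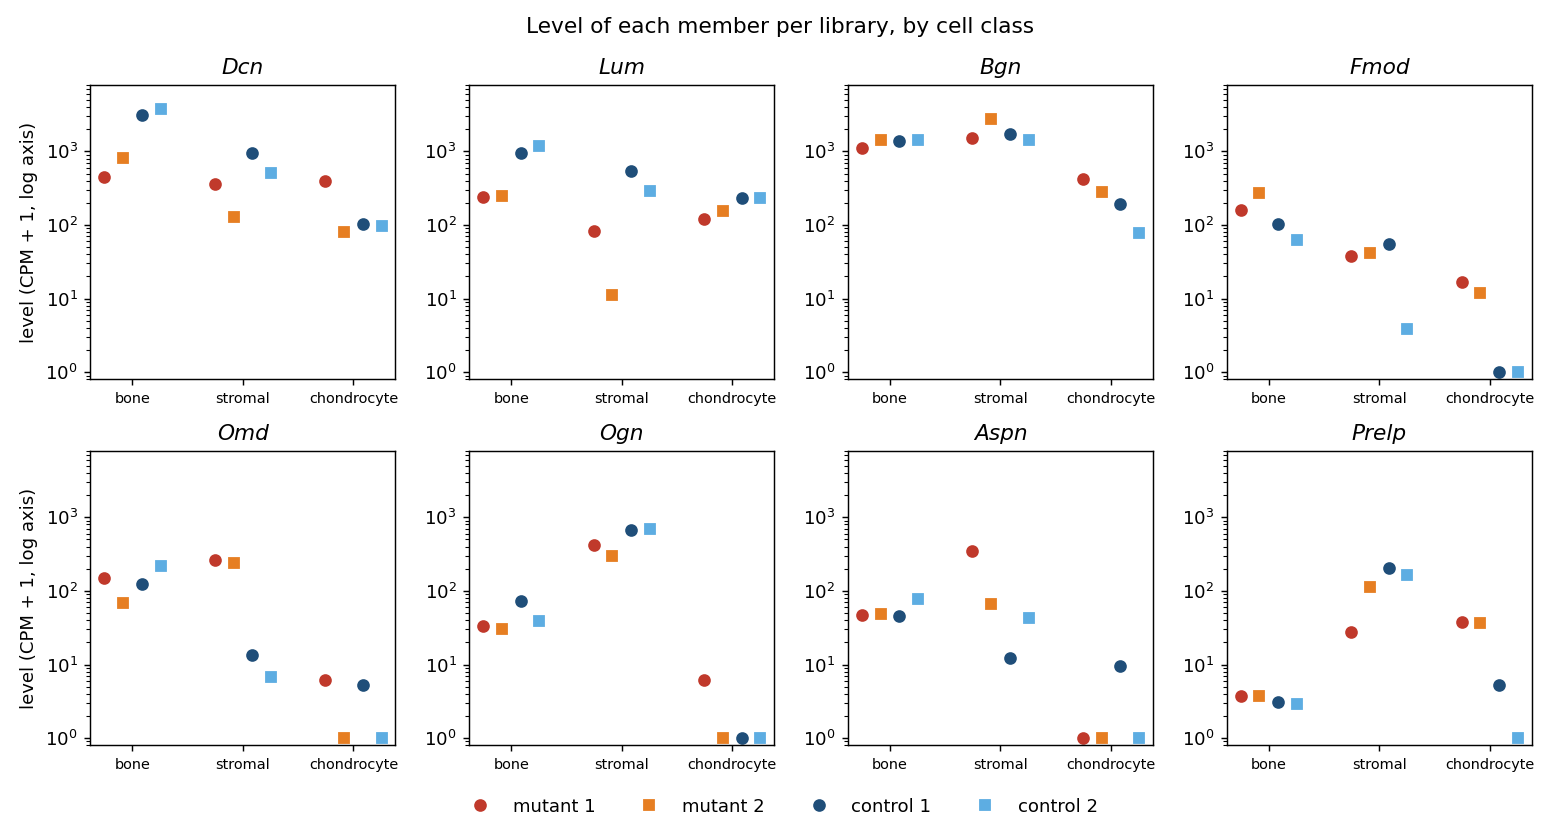
Level of each member in CPM + 1 (log axis) in bone, stromal and chondrocyte cells of each library, with mutant 1 and mutant 2 left of control 1 and control 2. Dcn and Lum in bone cells lie lower in both mutants (451 and 805, against 3153 and 3795 CPM for Dcn), and Omd in stromal cells lies higher in both (265 and 236, against 12.4 and 5.67 CPM).

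The bone gate held cells at different stages, so the members were also summed within subtypes. Cells with high osteocalcin (Bglap and Bglap2, at least 2000 CPM) numbered 395 and 496 in mutants and 101 and 27 in controls. Osteocyte-like cells, which were set aside first by Dmp1 and Mepe (at least 1000 CPM), numbered 408 and 339 in mutants and 29 and 5 in controls. Progenitor-like cells, taken last by Col12a1 and Olfml2b (at least 200 CPM), numbered 993 and 463 in mutants and 92 and 9 in controls. Within 2-fold of a threshold lay 11.8% of bone cells for the osteocyte-like gate, 25.1% for the osteocalcin gate and 15.6% for the progenitor-like gate. The remaining bone cells, 207 and 175 in mutants and 58 and 6 in controls, passed none of these gates.

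In Bglap-high cells, 6 of 8 members passed the test, 1 higher and 5 lower, where 8.53% of 10956 genes were higher and 5.9% lower (14.4% in either direction). Decorin stood at 823 and 1313 CPM in mutants, against 4542 and 4659 CPM in controls, and lumican at 365 and 340 CPM in mutants, against 1309 and 1550 CPM in controls. The log2 differences were -2.27 ± 0.15 for decorin and -2.13 ± 0.17 for lumican (adjusted p = 6.7e-08 and 5.3e-07, edgeR). Fibromodulin stood at 178 and 329 CPM in mutants, against 55.7 and 72.7 CPM in controls, with no overlap (log2 difference 1.78 ± 0.22, adjusted p = 5.1e-05, edgeR). Within the software versions the fibromodulin difference was 1.66 and 2.16, a narrower range than over all bone cells. Decorin lost its call without mutant 1 (-2.04, adjusted p = 0.080, edgeR) and fibromodulin without control 1 (1.73, adjusted p = 0.064, edgeR).

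Asporin in Bglap-high cells stood at 29.8 and 33.7 CPM in mutants, against 74.7 and 121 CPM in controls, a log2 difference of -1.69 ± 0.24 (adjusted p = 0.00015, edgeR). With subtype thresholds 2 times as high it was -1.57 and did not pass (adjusted p = 0.279, edgeR). Osteomodulin was at 130 and 64.1 CPM in mutants and 146 and 252 CPM in controls (-1.15 ± 0.32, adjusted p = 0.023, edgeR). Osteoglycin was at 17.9 and 17.6 CPM in mutants and 31.8 and 28.8 CPM in controls (-0.89 ± 0.26, adjusted p = 0.031, edgeR). Osteomodulin and osteoglycin lost their calls with DESeq2 (adjusted p = 0.618 and 0.336), without the batch term, and, in turn, without control 1, without control 2 and without mutant 2. Without those libraries osteomodulin was -1.36, -0.73 and -0.57 and osteoglycin -0.73, -1.02 and -0.79, and osteoglycin did not pass without mutant 1 either (-1.05, adjusted p = 0.107, edgeR). Biglycan, at 1517 and 1853 CPM in mutants and 1532 and 1467 CPM in controls, had a log2 difference of 0.04 ± 0.14.

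Asporin UMIs came from very few cells, which bears on every asporin value. Of the bone cells, 126 and 62 in mutants and 8 and 6 in controls held any asporin UMI. The 5 cells with most of them held 23.3% and 37.4% of all asporin UMIs in mutants, against 97.8% and 97.6% in controls. For decorin the 5 leading cells held 5.0% and 5.5% in mutants and 8.4% and 31.3% in controls. A control level of asporin is thus the level of about a handful of cells, and the tests on library sums do not see how many cells lie behind a sum.

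In progenitor-like cells, where a minimum of 5 rather than 15 cells per library let control 2 enter with its 9 cells, 5 of 8 members passed, 2 higher and 3 lower (8.18% of 11559 genes higher, 4.31% lower, 12.5% in either direction). Osteoglycin stood at 54.5 and 54.7 CPM in mutants, against 209 and 133 CPM in controls, and decorin at 367 and 553 CPM in mutants, against 2047 and 2309.9 CPM in controls. Lumican stood at 231 and 236 CPM in mutants, against 856 and 800 CPM in controls. The log2 differences were -1.59 ± 0.25 for osteoglycin, -2.18 ± 0.14 for decorin and -1.73 ± 0.18 for lumican.

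Fibromodulin rose by 0.96 ± 0.23 in progenitor-like cells, with 191 and 321 CPM in mutants and 164 and 78.8 CPM in controls. Asporin, which was lower in mutant Bglap-high cells, was higher in mutant progenitor-like cells, at 77.9 and 93.6 CPM, against 53.3 and 12.1 CPM in controls (1.05 ± 0.28). Adjusted p-values of the 5 calls were 0.0031 or lower (edgeR). None of the 5 passed without control 2, where decorin had a log2 difference of -2.18 (adjusted p = 0.078, edgeR) and asporin 0.67 (adjusted p = 0.297, edgeR), or without control 1, where decorin had -2.15 and asporin 3.01 (adjusted p = 0.292 for each, edgeR). Without mutant 1 the calls of decorin (-1.999, adjusted p = 0.058, edgeR), fibromodulin (1.21, adjusted p = 0.090, edgeR) and asporin (1.04, adjusted p = 0.210, edgeR) were lost, and without mutant 2 those of fibromodulin (0.67, adjusted p = 0.471, edgeR) and asporin (0.98, adjusted p = 0.187, edgeR).

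In osteocyte-like cells, with 29 and 5 control cells, 5 of 8 members had enough counts to be tested and decorin and lumican were lower (1.05% of 9443 genes lower, 1.76% higher, 2.81% in either direction). Decorin stood at 199 and 462 CPM in mutants, against 2078 and 1941 CPM in controls, a log2 difference of -2.77 ± 0.32 (adjusted p = 7e-15, edgeR). Lumican stood at 111 and 126 CPM in mutants, against 742 and 546 CPM in controls, a log2 difference of -2.48 ± 0.32 (adjusted p = 1.9e-11, edgeR). Without mutant 1 neither passed, at -2.31 for decorin (adjusted p = 0.212, edgeR) and -2.57 for lumican (adjusted p = 0.249, edgeR). Asporin was at or near 0 in all 4 libraries of these cells, at 0 and 0.743 CPM in mutants and 0 CPM in both controls. Osteoglycin, which was too scarce to test there, had 25 and 40 UMIs in mutants (3.98 and 9.91 CPM) and 0 UMIs in both controls, where 3 counts, the limit that a count of 0 allows, come to 6.21 and 31.5 CPM; a difference was not detectable at this depth. In the remaining bone cells, which were not tested, decorin stood at 380 and 487 CPM in mutants, against 2508 and 2788 CPM in controls, and osteoglycin had 31 and 7 UMIs in mutants (6.93 and 2.27 CPM) and 7 and 0 UMIs in controls (4.79 CPM in control 1, and a limit of 20.4 CPM in control 2). The lower osteoglycin of both mutants was thus measured in Bglap-high and progenitor-like cells, and not in the other bone cells. Decorin and lumican were thus lower in both mutants in each of the 4 subtypes. With the 4 subtypes weighted equally the log2 difference of bone-cell CPM was -2.36 for decorin and -1.93 for lumican, against -2.52 and -2.12 for the plain sums. Fibromodulin did not pass in osteocyte-like cells (0.83 ± 0.40, adjusted p = 0.346, edgeR). In the remaining bone cells its log2 difference was -0.80 within the first software version and 2.79 within the second.

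**Figure D3:**
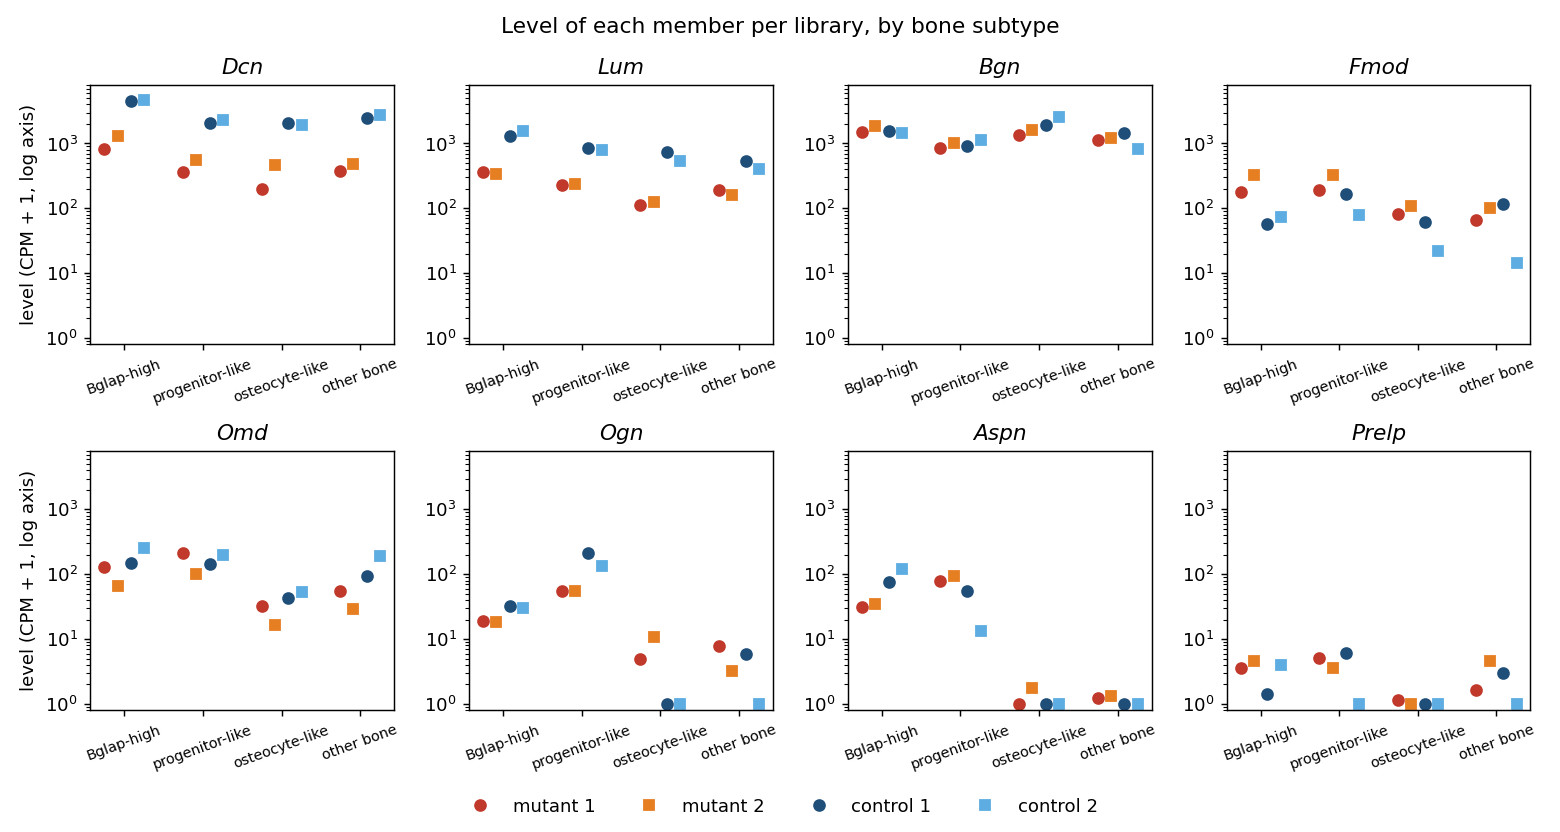
Level of each member in CPM + 1 (log axis) in 4 bone subtypes of each library, with the mutants left of the controls. Both mutants lie below both controls in every subtype for Dcn and Lum, and Aspn lies lower in mutant Bglap-high cells (29.8 and 33.7, against 74.7 and 121 CPM) and higher in mutant progenitor-like cells (77.9 and 93.6, against 53.3 and 12.1 CPM).

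The share of bone cells with a UMI, after each cell was thinned to 1000 UMIs, showed the same order for decorin and lumican. Decorin was detected in 22.7% and 34.8% of bone cells in mutants, against 73.6% and 76.6% in controls. Without thinning these shares were 63.2% and 67.3% in mutants and 91.8% and 91.5% in controls. Lumican was detected in 15.03% and 13.8% in mutants, against 140 of 280 cells and 23 of 47 cells in controls. Fibromodulin was detected in 11.7% and 18.1% in mutants, against 5.71% and 2.13% in controls. Biglycan was detected in 57.2% and 65.5% in mutants, against 68.6% and 74.5% in controls. With 2 libraries per genotype the exact two-sided permutation test of each of these 4 differences gave p = 0.33, the smallest it can give here. Osteoglycin, called lower by its summed UMIs, did not separate by this measure. It was detected in 3.30% and 3.05% in mutants, against 7.86% and 2.13% in controls, so control 2 lay below both mutants. The thinned shares of osteomodulin, asporin and Prelp overlapped between genotypes as well. In erythroid cells, which should lack these genes, the highest thinned share of any member in any library was 2.99% (biglycan in mutant 2), at a median depth of 15641 UMIs. Fibromodulin in control 2 was below that, at 1 cell of 47, and its erythroid share there was 0.

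Members were often read in the same bone cell. No member was seen in 22.9% and 20.4% of thinned bone cells in mutants and 8.21% and 10.6% in controls, and exactly 3 members were seen in 7.84% and 12.3% in mutants and 28.2% and 27.7% in controls. Lumican was seen in 27.8% and 25.4% of decorin-positive mutant bone cells, against 11.3% and 7.7% of decorin-negative ones. In controls lumican was seen in 56.3% and 58.3% of decorin-positive bone cells, against 32.4% and 18.2% of decorin-negative ones. Lumican was thus rarer in mutants among decorin-positive and decorin-negative cells alike.

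**Figure D4:**
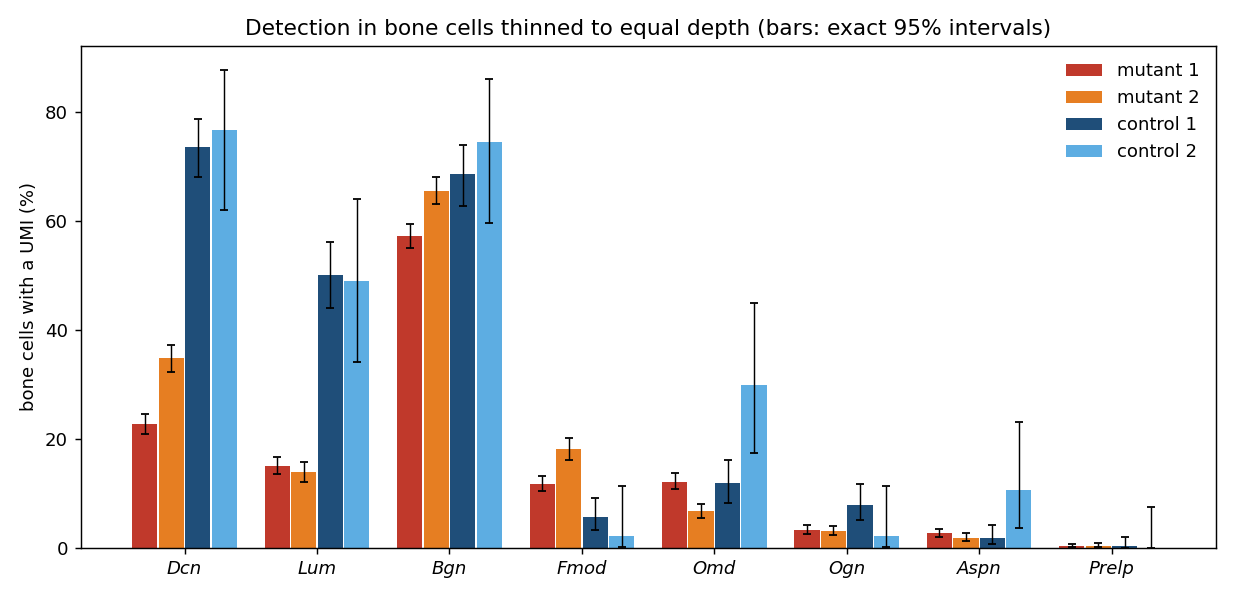
Share of bone cells with at least 1 UMI of each member, in percent, after thinning every cell to 1000 UMIs; bars are libraries, mutants left of controls, and error bars are exact 95% binomial intervals that cover counting error only. Dcn was detected in 22.7% and 34.8% of mutant bone cells, against 73.6% and 76.6% of control bone cells.

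Stromal cells, the Cxcl12-rich reticular cells that carry the leptin receptor, showed another set of differences. Osteomodulin and asporin were higher in mutants, and lumican, decorin, Prelp and osteoglycin were lower: 2 of 8 higher and 4 lower, where 11.5% of 7654 genes were higher and 10.8% lower (22.3% in either direction). This test was added after the cell counts of the classes were seen. The stromal gate did not hold the same cells in both genotypes: the median stromal cell had 6 of 10 stromal markers in each mutant, against 10 and 9 in controls. The 10 stromal markers summed to 7038 and 11512 CPM in mutants, against 40656 and 35048 CPM in controls, and all 10 were detected in every library. The 12 bone markers summed to 4795 and 7193 CPM in mutant stromal cells, against 1720 and 1938 CPM in controls. The 7 pericyte and smooth muscle markers summed to 877 and 950 CPM in mutants and 358 and 286 CPM in controls, and the 8 fibroblast and tendon markers to 258 and 13.7 CPM in mutants and 4.08 and 2.83 CPM in controls. The part of these lists in the stromal differences was not tested.

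Osteomodulin stood at 265 and 236 CPM in mutant stromal cells (200 and 69 UMIs), against 12.4 and 5.67 CPM in control stromal cells (76 and 2 UMIs). The groups were far apart, with a log2 difference of 4.68 ± 0.29 (adjusted p = 4e-08, edgeR), or 4.13 among cells with 6 or more stromal markers. In mutant 2, however, 66 of the 69 osteomodulin UMIs came from 5 cells. Asporin stood at 343 and 64.9 CPM in mutants, against 11.1 and 42.5 CPM in controls (log2 difference 3.96 ± 0.62, adjusted p = 0.00021, edgeR). Its difference was 4.83 within the first software version and 0.60 within the second, and all 19 asporin UMIs of mutant 2 came from 1 cell. The asporin call was lost with DESeq2 (2.96, adjusted p = 0.387).

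Lumican stood at 82.2 and 10.3 CPM in mutant stromal cells, against 539 and 289 CPM in controls, with no overlap (log2 difference -3.06 ± 0.33, adjusted p = 6.5e-06, edgeR). The mutant values rest on 62 and 3 UMIs, and 51 of the 62 in mutant 1 came from 5 cells. The lumican difference was -5.33 without mutant 1 and -2.15 without mutant 2, and it passed in both fits. Decorin stood at 362 and 126 CPM in mutants, against 962 and 507 CPM in controls (-1.55 ± 0.27, adjusted p = 0.00067, edgeR). In mutant 1, 230 of 273 stromal decorin UMIs came from 5 cells, and among cells with 6 or more markers the decorin difference was -2.83. Osteoglycin, at 414 and 297 CPM in mutants, was below its 678 and 686 CPM in controls (-0.83 ± 0.26, adjusted p = 0.033, edgeR). Prelp stood at 26.5 and 113 CPM in mutants, against 204 and 164 CPM in controls (-1.66 ± 0.38, adjusted p = 0.0052, edgeR). Decorin lost its call without control 1 (-0.82, adjusted p = 0.444, edgeR) or mutant 2 (-0.83, adjusted p = 0.151, edgeR), and Prelp without control 1 (-1.24, adjusted p = 0.207, edgeR) or mutant 1 (-0.70, adjusted p = 0.33, edgeR). Osteoglycin lost it without control 1, control 2 or mutant 2, with log2 differences of -0.76, -0.87 and -0.50.

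Biglycan was abundant in stromal cells of both genotypes, at 1507 and 2713 CPM in mutants and 1744 and 1436 CPM in controls (log2 difference 0.47 ± 0.31, adjusted p = 0.312, edgeR). Fibromodulin was at 37.1 and 41.0 CPM in mutants and 53.5 and 2.83 CPM in controls, and its difference of 0.25 ± 0.49 did not pass (adjusted p = 0.768, edgeR), except without control 1, where it was 3.81 (adjusted p = 0.036, edgeR) against the 1 fibromodulin UMI of control 2.

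**Figure D5:**
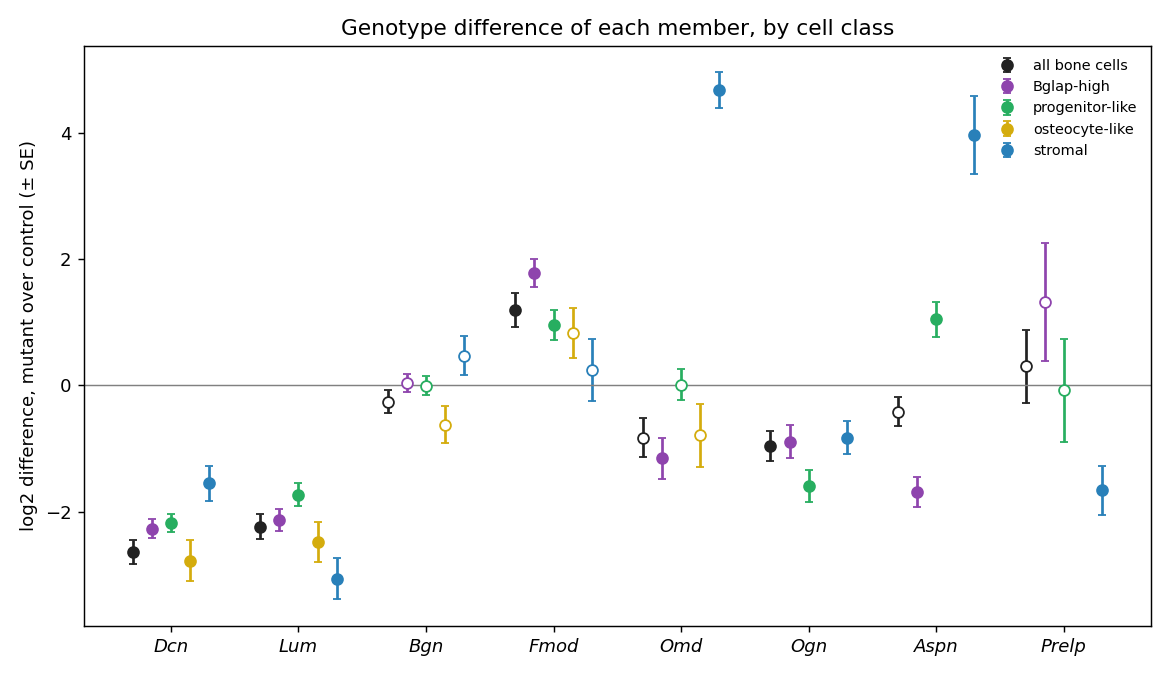
Log2 difference, mutant over control, with its SE, for each member in all bone cells, 3 bone subtypes and stromal cells; filled points have an adjusted p below 0.05 (edgeR) and missing points had too few counts. Dcn and Lum lie below 0 in every class shown, Bgn has no filled point, and Omd and Aspn in stromal cells lie highest (4.68 and 3.96).

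Set against bone cells of the same control libraries, stromal cells had a different mix of members. Prelp and osteoglycin were higher in stromal cells and decorin, lumican, fibromodulin, osteomodulin and asporin lower, so 7 of 8 members passed, where 22.9% of 11707 genes were higher and 22.4% lower (45.3% in either direction). Prelp stood at 204 and 164 CPM in stromal cells, against 2.13 and 1.87 CPM in bone cells, a log2 difference of 5.73 ± 0.35. Osteoglycin stood at 678 and 686 CPM in stromal cells, against 72.9 and 38.4 CPM in bone cells, a log2 difference of 2.81 ± 0.26. Osteomodulin stood at 12.4 and 5.67 CPM in stromal cells, against 125 and 217 CPM in bone cells (-4.43 ± 0.29). The log2 difference was -3.07 ± 0.32 for decorin, -2.17 ± 0.28 for lumican, -2.46 ± 0.28 for asporin and -2.09 ± 0.26 for fibromodulin, and the adjusted p-values of the 7 were 5.6e-14 or lower (edgeR). Biglycan had a log2 difference of -0.60 ± 0.28 with trimmed-mean scaling (adjusted p = 0.066, edgeR) and 0.19 with scaling by total UMIs, so its sign depends on the scaling. Scaling by total UMIs moved the median of all genes by 0.81 in this comparison and left the signs of the other 7 members as given.

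Chondrocytes, which make cartilage matrix with type II collagen, were set against bone cells in mutant 1, mutant 2 and control 1, which had 15 or more of them. Prelp was higher in chondrocytes and the other 7 members were lower, where 6.13% of 10570 genes were higher and 9.39% lower (15.5% in either direction). Prelp stood at 36.7, 35.9 and 4.26 CPM in chondrocytes of mutant 1, mutant 2 and control 1, against 2.76, 2.70 and 2.13 CPM in their bone cells (3.11 ± 0.68, adjusted p = 0.0024, edgeR); the chondrocyte values rest on 7, 20 and 1 UMIs. Biglycan stood at 425, 276 and 192 CPM in chondrocytes, against 1124, 1428 and 1366 CPM in bone cells (-2.44 ± 0.44, adjusted p = 0.00034, edgeR). The adjusted p-values of the 8 were 0.0086 or lower (edgeR). Decorin and Prelp lost their calls without mutant 2 (adjusted p = 0.078 and 0.122, edgeR). The higher Prelp of chondrocytes thus rested mainly on the mutants, since control 1 had 1 UMI. With a minimum of 5 cells, which let control 2 enter, Prelp had too few counts to be tested. The other 7 members passed as lower in that fit as well.

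Between genotypes, chondrocytes were tested with a minimum of 5 cells, and 3 of 8 members had enough counts. Biglycan was higher in mutants, with 425 and 276 CPM, against 192 and 77.7 CPM in controls (log2 difference 1.92 ± 0.33, adjusted p = 0.031, edgeR), where 3.3% of 3547 genes were higher and 1.61% lower (4.91% in either direction). The call was lost without control 2 (1.32, adjusted p = 0.648, edgeR) and without mutant 1 (1.36, adjusted p = 0.448, edgeR). Lumican was at 121 and 152 CPM in mutants and 234 and 229 CPM in controls, and its difference of -0.31 ± 0.32 did not pass (adjusted p = 0.639, edgeR). Decorin was at 393 and 78.9 CPM in mutants and 102 and 96.0 CPM in controls, so mutant 1 alone stood high; among the fits that leave out 1 library, decorin was called without mutant 2 (2.65, adjusted p = 0.0022, edgeR). Stromal markers in chondrocytes moved with the genotype, at 2067 and 499 summed CPM in mutants and 34.1 and 41.2 in controls, and the 10 erythroid markers stood highest in mutant 2, at 10.5 and 18900 CPM in mutants and 3060 and 517 CPM in controls. Their part in these values was not tested.

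Endothelial cells were tested after their Prelp level was seen. Prelp stood at 10.4 and 23.0 CPM in mutants, against 146 and 110 CPM in controls (3, 225, 25 and 514 UMIs). Both mutants were lower, by a log2 difference of -2.45 ± 0.27 (adjusted p = 1e-16, edgeR), and the difference was -3.69 and -2.21 within the software versions. Decorin was called higher, at 3.46 and 23.2 CPM in mutants, against 5.84 and 2.56 CPM in controls; only mutant 2 stood high, and mutant 1 rests on 1 UMI. Bone markers summed to 294 and 1979 CPM in mutant endothelial cells, against 117 and 45.3 CPM in controls. Decorin made up 437 CPM of the free RNA of mutant 2, 158 CPM in control 1 and 44.0 CPM in control 2. Mutant 1 lists no low-count barcodes, so its free RNA could not be read. Of 3 members tested, 1 was lower and 1 higher, where 2.85% of 10704 genes were lower and 2.3% higher (5.15% in either direction). The 5 sinusoidal vessel markers summed to 1325 and 2222 CPM in mutants, against 4055 and 4540 CPM in controls, and the 7 pericyte and smooth muscle markers to 363 and 499 CPM in mutants, against 1221 and 1404 CPM in controls. The 8 fibroblast and tendon markers summed to 1221 and 670 CPM in mutants, against 462 and 249 CPM in controls. The 6 arterial markers did not separate the genotypes, at 484 and 145 CPM in mutants and 497 and 98.7 CPM in controls. The part of these lists in the Prelp and decorin differences was not tested. The Prelp call was lost without control 2 (-2.87, adjusted p = 0.357, edgeR) and the decorin call without control 1 (2.77, adjusted p = 0.155, edgeR). Without control 2 or mutant 2, decorin had too few counts to be tested.

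Summed over bone, stromal and chondrocyte cells, the members also carry the change in the mix of cells, since stromal cells were the larger class in control 1. Prelp stood at 3.36 and 4.47 CPM in mutants, against 102 and 36.6 CPM in controls, and osteoglycin at 39.4 and 31.2 CPM in mutants, against 369 and 173 CPM in controls. The log2 differences were -3.72 ± 0.40 and -2.52 ± 0.22 (adjusted p = 0.0011 and 0.00044, edgeR). Decorin (-1.62) and lumican (-1.40) were lower too and fibromodulin (2.14) higher, so 5 of 8 members passed, where 11.3% of 14132 genes were higher and 10.4% lower (21.7% in either direction). Decorin did not pass without mutant 1 (-1.30, adjusted p = 0.103, edgeR), nor lumican without mutant 1 (-1.46, adjusted p = 0.056, edgeR) or mutant 2 (-1.24, adjusted p = 0.070, edgeR), and asporin passed without control 2 (1.14, adjusted p = 0.029, edgeR). With the 3 classes weighted equally, Prelp had a log2 difference of -0.88 and osteoglycin -0.94. In such sums, fewer cells of a type and less RNA per cell cannot be told apart.

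Among bone subtypes of mutant 1, mutant 2 and control 1, with library as a block, osteocyte-like cells had less of 6 of the 7 members tested than Bglap-high cells (14.1% of 10873 genes higher, 13.1% lower, 27.1% in either direction). Asporin stood at 0, 0.743 and 0 CPM in osteocyte-like cells of mutant 1, mutant 2 and control 1, against 29.8, 33.7 and 74.7 CPM in Bglap-high cells. The log2 difference was -2.11 ± 0.12 for osteomodulin, -1.73 ± 0.34 for osteoglycin, -1.68 ± 0.13 for decorin, -1.45 ± 0.14 for lumican and -1.29 ± 0.20 for fibromodulin (adjusted p = 0.0041 or lower, edgeR). Biglycan was the exception, at 1340, 1602 and 1902 CPM in osteocyte-like cells, against 1517, 1853 and 1532 CPM in Bglap-high cells (-0.15 ± 0.10, adjusted p = 0.289, edgeR), although without control 1 it passed at -0.29 (adjusted p = 0.0058, edgeR).

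Progenitor-like cells of the same libraries had more osteoglycin than Bglap-high cells, at 54.5, 54.7 and 209 CPM, against 17.9, 17.6 and 31.8 CPM (1.48 ± 0.16, adjusted p = 0.00049, edgeR). They had less decorin (-1.62 ± 0.06), biglycan (-1.25 ± 0.05) and lumican (-1.04 ± 0.07), so 4 of 8 members passed, where 11.6% of 11919 genes were higher and 14.5% lower (26.1% in either direction). Scaling by total UMIs moved the median of all genes by 0.41 here and kept these 4 signs. Without control 1, asporin (1.05), fibromodulin (-0.35) and osteomodulin (0.29) passed as well (adjusted p = 4.6e-05, 0.0038 and 0.011, edgeR). By level, therefore, osteoglycin was highest in progenitor-like cells, and decorin and lumican in Bglap-high cells. Asporin did not pass between the subtypes with all of these libraries (0.58 ± 0.31, adjusted p = 0.212, edgeR), and its control levels rest on few cells.

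Interaction terms compared the genotype differences between classes. The difference in stromal cells stood above that in bone cells for osteomodulin by 5.19 ± 0.36 and asporin by 3.95 ± 0.39, and it was lower for Prelp (-1.94 ± 0.50, all on the log2 scale) (adjusted p = 1.5e-28, 8e-17 and 0.0037, edgeR; 7.96% of 12541 genes passed, 4.29% upward and 3.67% downward). Decorin differed by 1.24 ± 0.32 (adjusted p = 0.004, edgeR), which became -0.11 without mutant 1. The Prelp term lost its call without control 1 (-1.77, adjusted p = 0.473, edgeR) or mutant 1 (-0.92, adjusted p = 0.627, edgeR), and the decorin term without control 2 (0.65, adjusted p = 0.358, edgeR). The lumican term passed without control 2 (-1.19, adjusted p = 0.037, edgeR) or mutant 1 (-2.94, adjusted p = 0.00019, edgeR), and the biglycan term without control 1 (0.99, adjusted p = 0.049, edgeR) or mutant 1 (1.02, adjusted p = 0.044, edgeR). Between progenitor-like and Bglap-high cells, asporin differed by 2.37 ± 0.28 and osteomodulin by 0.96 ± 0.18 (adjusted p = 0.00025 and 0.015, edgeR), where 0.526% of 11966 genes passed, 0.134% upward and 0.393% downward. The osteomodulin term lost its call without mutant 1 (0.98, adjusted p = 0.956, edgeR) or mutant 2 (1.03, adjusted p = 0.662, edgeR). Decorin and lumican did not pass there, with 0.06 ± 0.12 and 0.34 ± 0.15. Between chondrocytes and bone cells, decorin differed by 3.996 ± 0.81 and lumican by 1.97 ± 0.37 (adjusted p = 0.037 and 0.03, edgeR; 1.53% of 8716 genes passed, 1.02% upward and 0.505% downward). The lumican term lost its call without mutant 2 (1.95, adjusted p = 0.0998, edgeR).

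Genes that work with the SLRPs were read in bone cells by list, against a median log2 difference of 0.04 over all 13102 genes. Of all these genes 10.1% were higher and 6.99% lower (17.1% in either direction), the shares to set beside the counts of every list below. Of 21 fibrillar collagens and collagen-processing genes tested, 11 were lower, none was higher and 10 did not pass, with a median of -0.83. The type XI collagen chain Col11a2 stood at 59.9 and 119 CPM in mutants, against 1197 and 1148 CPM in controls (-3.92 ± 0.24, adjusted p = 8.6e-11, edgeR). The type I collagen chains followed. Col1a1 stood at 31550 and 42180 CPM in mutants, against 84437 and 90877 CPM in controls (-1.38 ± 0.13), and Col1a2 differed by -1.40 ± 0.13. Col1a1 is itself a marker of the bone gate, so it helped to decide which cells were compared, whereas Col1a2 is not. Col3a1, the type III chain, differed by -2.24 ± 0.26, with control 2 standing above control 1 (65.4 and 125 CPM in mutants, 182 and 846 CPM in controls). Decorin and lumican thus fell further than the type I chains in these values; that contrast was not tested.

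Enzymes that build the chondroitin and dermatan sulfate chains went the other way in part: of 23 tested, 8 were higher, 1 lower and 14 did not pass, with a median of 0.18. The chondroitin polymerizing factor Chpf stood at 165 and 175 CPM in mutants, against 35.6 and 57.1 CPM in controls (1.82 ± 0.24, adjusted p = 7.2e-06, edgeR). Dse, the epimerase that turns chondroitin into dermatan sulfate, stood at 52.1 and 45.1 CPM in mutants, against 17.2 and 15.9 CPM in controls (1.45 ± 0.25). The sulfotransferases Chst12 (1.32 ± 0.25) and Chst14 (1.38 ± 0.27) were higher as well, and the uronyl sulfotransferase Ust was lower (-0.85 ± 0.26). Of 7 keratan sulfate enzymes, the sulfotransferase Chst1 alone passed, with 34 and 81 UMIs in mutants and none in controls, which held far fewer bone cells.

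Of 15 tested growth factors and receptors that SLRPs bind, 5 were higher, none lower and 10 did not pass (median 0.61). Tgfb2 stood at 72.3 and 41.4 CPM in mutants, against 7.88 and 22.5 CPM in controls (2.15 ± 0.36, adjusted p = 0.00017, edgeR). Bmp4 (1.77 ± 0.28) and Bmp2 (1.45 ± 0.25), ligands that drive bone formation, rose too, as did Tlr4 (2.72 ± 0.50), an innate immune receptor, at 7.96 and 9.39 CPM in mutants and 0.985 and 1.87 CPM in controls.

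Among 16 other matrix and cell-surface proteoglycans tested, 4 were higher, 3 lower and 9 did not pass (median 0.35). The syndecan Sdc1 stood at 107 and 80.2 CPM in mutants, against 22.0 and 15.9 CPM in controls (2.18 ± 0.24, adjusted p = 7.7e-07, edgeR), and Sdc4 (1.17 ± 0.24) and the glypicans Gpc1 (0.79 ± 0.21) and Gpc6 (0.69 ± 0.24) were higher. The lecticans Bcan (-2.75 ± 0.27) and Vcan (-1.06 ± 0.21) were lower. Acan, the lectican of cartilage and a marker of the chondrocyte gate, passed as lower (-1.49 ± 0.47). Only control 2 stood apart, however, at 2.31 and 5.90 CPM in mutants and 2.13 and 33.7 CPM in controls. Of 8 proteases that cut SLRPs, Htra3 (0.85 ± 0.23) and Mmp14 (0.64 ± 0.20) were higher and 6 did not pass (median 0.38). None of 6 further SLRP genes tested passed the edgeR test (median -0.05). Podnl1 differed by -0.26 ± 0.25 and Tsku by -0.46 ± 0.32.

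Across 37 sums of a class in a library, which share libraries and cell classes, decorin and lumican had the most alike profiles among the members (Pearson r = 0.94 of log2(CPM + 1)). Asporin and osteoglycin, neighbours on chromosome 13, had r = 0.81, and Prelp and fibromodulin, neighbours on chromosome 1, had r = 0.06. Outside the family, the nearest genes to decorin were Fxyd1 (r = 0.94), Pcolce (0.94) and Snhg18 (0.94), and those to lumican were Fxyd1 (0.91), Twist1 (0.90) and Lox (0.89). The nearest to biglycan were Sh3pxd2b, Bmp1 and Dpysl3 (0.97, 0.96 and 0.96), and those to fibromodulin were Mmp16, Olfml3 and Fap (0.95, 0.94 and 0.92). For osteomodulin they were Clec11a, Mmp23 and Prrx1 (0.88 each), and for osteoglycin Serping1, Loxl1 and Fst (0.91, 0.91 and 0.89). Asporin was nearest to Col3a1, Vcan and Loxl1 (0.87, 0.79 and 0.78), and Prelp to Plpp3, Nid1 and Nrp1 (0.91, 0.90 and 0.89).

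The core of the m6A consensus, GGACT, was counted in the longest annotated coding transcript of each member as a description of sequence only, since m6A itself was not measured. Decorin held 4 sites in 1758 bases, or 2.28 per kb, a density that 7.66% of protein-coding genes reached or passed. The median over protein-coding genes was 1.01 per kb. Osteoglycin held 4 sites (1.56 per kb, reached or passed by 23.2% of genes). Biglycan, asporin and Prelp held 2 each, lumican and fibromodulin 1 each and osteomodulin none in 2249 bases, all below that median per kb. Lumican had 0.408 sites per kb, a density that 81.9% of genes reached or passed. A link between site density and the bone-cell differences was not tested.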

How the data were processed

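The authors deposited UMI count matrices per gene and barcode, made with Cell Ranger 5.0.1 for mutant 1 and control 1 and 6.1.2 for mutant 2 and control 2, per the submitters' processing notes; the matrix headers name other releases for some libraries. The deposited counts are raw. The matrix of mutant 1 held 3352 barcodes, none below 501 UMIs, whereas the other 3 held all barcodes. Barcodes below 1000 UMIs or 500 genes, or above 10% mitochondrial UMIs, were dropped, and predicted doublets were removed with Scrublet in scanpy 1.11.5 (0.8% expected per 1000 cells; 55 and 168 removed in mutants, 270 and 106 in controls). This left 2573 and 4419 cells in mutants and 5538 and 3529 in controls, with median depths of 16255 and 10198 UMIs in mutants and 14637 and 23809 in controls. Library pairs shared 2 to 10 cell barcodes.

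A cell joined the class with the largest share of its markers detected, with at least 3 and no tie. Clustering was not used. Erythroid cells remained after the sort. Sums over the cells of a class in a library were tested with edgeR 4.0.16 (R 4.3.3; trimmed-mean scaling, low-count filter, quasi-likelihood test, Benjamini-Hochberg adjustment over all genes tested, threshold 0.05), with software version as a covariate between genotypes and library as a block between classes. A class needed 15 cells in every library, or 5 where stated; chondrocytes, progenitor-like and osteocyte-like cells could not be compared between genotypes at 15. The genotype fits have 1 residual degree of freedom, and the spread is moderated across genes, so their p-values rest mainly on the pooled spread. The scripts were tested on simulated counts.

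The members and the lists were chosen with earlier results of these data known. The tests in stromal and endothelial cells, and of stromal against bone differences, were added after the data were seen, as were the minimum of 5 cells, the gate of 6 markers and scaling by total UMIs. Of each list, the text names up to 4 genes in each direction by smallest p, or up to 2 by level where none passed; for likeness, the 3 genes with the highest r and a mean of at least 50 CPM. Subtype thresholds were set from marker levels. Binomial intervals cover counting error only. Alternatives were DESeq2 1.42.0 (test and size factors), no low-count filter, at least 3000 UMIs, at most 5% mitochondrial UMIs, doublets kept, a gate of 4 markers, subtype thresholds 2 times as high or as low, thinning, equal weights, no batch term or block, and leaving out each library.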

Additional observations from a re-analysis of the deposited data

Results flagged for a closer look

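Genotype differences that themselves differed between cell classes are listed with the interaction term (log2, edgeR). Between stromal and bone cells the term was 5.19 ± 0.36 for Omd, 3.95 ± 0.39 for Aspn, -1.94 ± 0.50 for Prelp and 1.24 ± 0.32 for Dcn. Mutant stromal cells had fewer stromal markers than control stromal cells (a median of 6 and 6 of 10, against 10 and 9), and the part of this in the 4 terms was not tested. Most asporin UMIs came from a few cells in stromal cells of each genotype.

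Between progenitor-like and Bglap-high bone cells the term was 2.37 ± 0.28 for Aspn and 0.96 ± 0.18 for Omd. Control 2 entered with 9 progenitor-like cells, which held 2 asporin UMIs.

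Between chondrocytes and bone cells the term was 3.996 ± 0.81 for Dcn and 1.97 ± 0.37 for Lum. Dcn in chondrocytes stood at 393 and 78.9 CPM in mutants and 102 and 96.0 CPM in controls, so only mutant 1 stood high there. Among bone cells both mutants were low. With 1 library left out, the Dcn term ran from 2.37 to 5.67.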

How the results depend on the processing

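Counts of members called were recomputed under each alternative. Without the batch term, 2 members were called in bone cells (4 with it), 3 in stromal cells (6 with it) and 1 in endothelial cells (2 with it). With DESeq2's Wald test, and with doublets kept, 1 was called in endothelial cells. Without the library block, 1 was called between osteocyte-like and Bglap-high cells (6 with it), 0 between progenitor-like and Bglap-high cells (4 with it; edgeR) and 1 for the difference between stromal and bone effects (4 with it; 2 with DESeq2). The cause was not tested.

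Leaving out 1 library gave 0 to 4 members in bone cells, 3 to 4 in Bglap-high cells, 0 to 3 in progenitor-like cells (5 with all libraries), 0 to 2 in chondrocytes (1 with all) and in osteocyte-like cells (2 with all), 4 to 5 in stromal cells, 0 to 3 in endothelial cells and 3 to 6 over the 3 classes together. It gave 6 to 8 for chondrocytes against bone cells, 6 to 8 for osteocyte-like and 4 to 7 for progenitor-like against Bglap-high cells, 1 to 4 for the progenitor-like interaction (2 with all) and 2 to 3 for the chondrocyte interaction (2 with all). With a library left out, no batch term was fitted between genotypes and the lone library of a genotype is assumed to vary like the others. Calls over all genes under the alternatives are given below for bone and stromal cells only. For the other comparisons, a lost member call cannot be told apart here from fewer calls of any gene. The decorin term between stromal and bone cells ran from -0.11 without mutant 1 to 2.24 without mutant 2, so its sign turned. Of the single-member values under alternatives, 994 kept their direction and their side of the threshold or moved by less than the spread, 93 lost a call, 35 gained one and 16 moved further. The sign turned for 1 value that was called and for 53 that were called neither in the reported fit nor under the alternative, among them fibromodulin in stromal cells (-0.41 without control 2) and osteomodulin over the 3 classes together (-0.38 without mutant 1).

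Genes called in bone cells numbered 2237, against 966 with DESeq2, 661 without the batch term, 217 after thinning, 26 without control 1, 242 without control 2, 658 without mutant 1 and 1215 without mutant 2. In stromal cells they numbered 1707, against 521 with DESeq2, 742 without the batch term, 913 at 5% mitochondrial UMIs, and 333, 664 and 584 without control 1, control 2 and mutant 1. The labels give the libraries no replicate numbers. Libraries were paired by software version alone, as a covariate, and the counts without the batch term are those without this pairing. The library with the fewest cells was control 2 in bone cells (47 cells) and mutant 2 in stromal cells (30 cells).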
